A study of Homo sapiens with 16 samples.

Results

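The mitochondrially encoded genes are the 37 genes of the mitochondrial genome, and their RNA was followed here across 16 RNA-seq libraries of human B-cell lymphoma lines. They were chosen by their symbol, which starts with MT-, among the 62714 genes listed in the count files, and comprise 13 mRNAs, 2 ribosomal RNAs and 22 transfer RNAs. The established lines SUDHL4, DOHH2, OCILY7 and SUDHL10 carried a lentiviral CRISPR vector with guides either against CREBBP, the gene of a lysine acetyltransferase and transcriptional coactivator, or against the adeno-associated virus integration site AAVS as the control, and were kept as targeted pools rather than single clones, labelled CREBBP -/- or AAVS -/-. Each pool was sampled without IL4 (baseline) and after 4 h with 10 ng/ml of IL4, a cytokine of T cells that acts on B cells. This gave 4 groups of 4 libraries, called AAVS or CREBBP for the guides and baseline or IL4 for the treatment, in which all pools carried the vector and each line gave 1 library per group. Line 1 is SUDHL4 and line 4 is DOHH2, while titles and cell line entries name OCILY7 and SUDHL10 in opposite order for lines 2 and 3, which are therefore called by number. The comparisons address whether IL4 or CREBBP targeting went along with other levels of mitochondrial RNA, and how far the lines themselves differed. Nothing in the labels describes more than 1 culture per pool and condition, so that the p-values for comparisons of groups measure the spread between these 4 lines.

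Human mitochondrial DNA is transcribed from both strands into long precursor RNAs, from which tRNAs are cut out and mRNAs and rRNAs released. A nuclear-encoded polymerase, POLRMT, makes these precursors, and the mRNAs are translated by ribosomes that contain the mitochondrial rRNAs. The proteins are core subunits of complexes I, III, IV and V of the respiratory chain, whose other subunits come from nuclear genes.

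In the annotation used (GENCODE, GRCh38), 12 of the 13 mRNAs lie on the plus strand of the reference, and MT-ND6 is the only mRNA on the minus strand. Their annotated lengths run from 207 bases for MT-ATP8 to 1812 bases for MT-ND5, and in 6 of the 13 the length is not a multiple of 3, as is known for mitochondrial mRNAs whose stop codon is completed by the poly(A) tail. The reference sequence starts with ATG in 9 of the mRNAs. Neighbouring mRNAs of 2 pairs share several bases, which matters for the counts, because a read in the shared bases fits both genes. The sequences of these pairs are shown in GRCh38, plus strand, with the shared bases in capitals, 46 bases (chrM:8527-8572) for MT-ATP8 and MT-ATP6 within chrM:8500-8599 and 7 bases (chrM:10760-10766) for MT-ND4L and MT-ND4 within chrM:10733-10793.
MT-ATP8 and MT-ATP6: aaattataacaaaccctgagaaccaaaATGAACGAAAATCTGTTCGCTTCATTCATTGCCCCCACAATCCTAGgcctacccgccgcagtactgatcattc
MT-ND4L and MT-ND4: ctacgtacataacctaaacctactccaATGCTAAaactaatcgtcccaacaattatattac
The capitals open with the start codon of the downstream gene in both pairs.

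Total counts ranged from 19649735 to 61981976 per library, so that a count of 0 allowed at most 0.0484 to 0.153 CPM (CPM is the count scaled to a library total of 1000000, and 3 counts are the limit that a count of 0 allows). All 7 B-cell marker genes were detected in every group, with sums of 3041 to 5576 CPM per library. The 4 AAVS IL4 libraries stood apart. The 6 markers used for resting or other B cells (IGHM, IGHD, CD44, VIM, FCER2 and CCR7) summed to 786 to 3984 CPM there and to 2.26 to 28.9 CPM in the other 12 libraries, with IGHD at 0 in all 12. Among them, FCER2 is named by the study as a target gene of STAT6, through which IL4 signals. The part of IL4 in its values was not tested. The 11 T-cell markers summed to 39.0 to 237 CPM against 2.37 to 38.3 CPM, and the 8 monocyte and macrophage markers to 5.18 to 21.5 CPM against 0.398 to 3.47 CPM, while the 6 stromal and endothelial markers did not stand apart (3.12 to 42.1 CPM against 0.174 to 51.1 CPM). CD2, CD163 and S100A9 were at 0 outside AAVS IL4. Every comparison that involves AAVS IL4 carries this difference, and its part in the results was not tested. CREBBP itself had 190.5 to 379 CPM in the AAVS pools and 69.9 to 278 CPM in the CREBBP pools. Its fitted log2 change was -0.11 at baseline (SE 0.21, edgeR adjusted p = 0.851) and -0.51 with IL4 (SE 0.23, edgeR adjusted p = 0.218), and a guide cut need not lower the RNA. The study reported by immunoblotting that CREBBP protein was lost in its targeted pools.

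The mitochondrial mRNAs took 1.48% to 4.03% of the counts of a library, the mitochondrial rRNAs took 0.000770% to 0.0248%, and the tRNAs had a single count in all. The 95% Wilson intervals of these shares, which cover counting error only, were at most 0.00700 percentage points wide to either side for mRNA and 0.000571 for rRNA. MT-CO1, the catalytic subunit of complex IV (cytochrome c oxidase), led in every library and made up 32.8% to 59.0% of the mitochondrial mRNA counts. By its count it ranked between 3 and 8 among all genes in the 16 libraries. In bulk RNA, fewer cells of a type and less RNA per cell cannot be told apart.

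**Figure D1:**
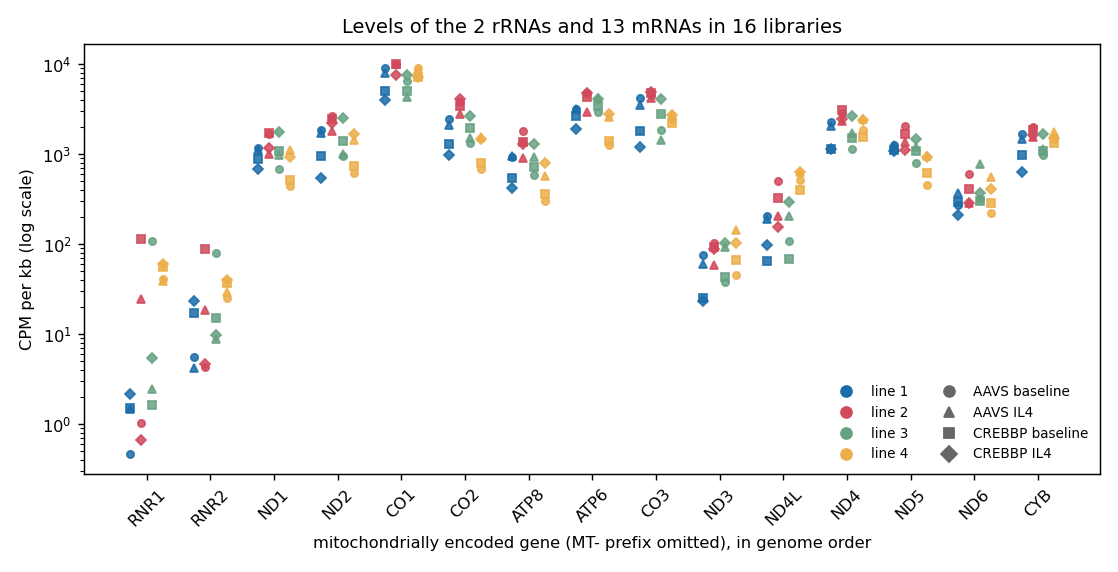
Level of the 2 mitochondrial rRNAs and 13 mRNAs in CPM per kb of annotated length (log axis), in genome order, with 1 point per library, colour for the line and shape for the group. MT-CO1 is highest, the short genes MT-ND3 and MT-ND4L are the lowest mRNAs, and the rRNAs spread most between libraries.

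Levels of different genes were compared per kb of annotated length. MT-CO1 had a mean of 7485 CPM per kb ± 2043 (SD, n = 16 libraries) and was above the next gene in 16 of 16 libraries. MT-ATP6 (3148 ± 1079) and MT-CO3 (3090.4 ± 1244), subunits of complex V and complex IV, followed and did not differ beyond their spread, as MT-ATP6 was the higher of them in 7 of 16 libraries. MT-CO2 (2058 ± 1057) and MT-ND4 (2041 ± 623) did not differ beyond their spread either, with MT-CO2 higher in 10 of 16 libraries. Below MT-ND4, which was higher in 16 of 16 libraries, came MT-ND2 (1536 ± 697), MT-CYB (1423 ± 369), MT-ND5 (1156 ± 389) and MT-ND1 (1062 ± 401), each of them higher than the next in 9 to 14 of 16 libraries. MT-CYB encodes cytochrome b of complex III and the ND genes encode subunits of complex I (NADH dehydrogenase). The 4 shortest mRNAs were the 4 lowest, with MT-ATP8 at 864 ± 415, MT-ND6 at 375 ± 152, MT-ND4L at 290 ± 196 and MT-ND3 at 73.1 ± 33.7 CPM per kb. How far annotated length entered the estimated counts was not tested. MT-ND3 was still above MT-RNR1 in 14 of 16 libraries. MT-RNR1 and MT-RNR2 had means of 28.9 ± 38.4 and 25.8 ± 25.5 CPM per kb, with MT-RNR1 the higher in 7 of 16 libraries. Per kb, MT-RNR1 was 128% to 164% of MT-RNR2 in these 7 libraries and 8.37% to 55.7% in the others.

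By the ratio of the highest to the lowest CPM, MT-CO1 varied least between libraries among the 15 genes tested. In the AAVS pools of lines 1 to 4, MT-CO1 (ENSG00000198804, chrM:5904-7445) had 14032, 15679, 9958 and 14049 CPM without IL4 and 12214, 15567, 6618 and 13526 CPM after IL4. In the CREBBP pools, MT-CO1 had 7811, 15375, 7743 and 11167 CPM without IL4 and 6218, 11824.5, 11829 and 11068 CPM after IL4. Line 2 was highest in each group except CREBBP IL4, where lines 2, 3 and 4 lay close together and line 1 was far below. The highest library exceeded the lowest 2.52-fold, against 2.74-fold for MT-ND4, 3.16-fold for MT-CYB, 6.02-fold for MT-CO2 and 9.73-fold for MT-ND4L.

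MT-ND3, a small membrane subunit of complex I, was the lowest mRNA. In the AAVS pools of lines 1 to 4, it had 26.3, 35.7, 13.2 and 15.9 CPM without IL4 and 20.7, 20.6, 32.0 and 50.4 CPM after IL4. In the CREBBP pools, MT-ND3 had 8.70, 32.2, 15.1 and 23.3 CPM without IL4 and 8.08, 30.9, 35.8 and 35.9 CPM after IL4. Both CREBBP libraries of line 1 lay below all other libraries, and the 4 groups overlapped.

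MT-ATP8 and MT-ATP6 encode 2 subunits of complex V, the ATP synthase, and are known to be carried by 1 transcript. In the AAVS pools of lines 1 to 4, MT-ATP8 had 194, 371, 123 and 62.9 CPM without IL4 and 199, 189, 194 and 118 CPM after IL4. In the CREBBP pools, MT-ATP8 had 112, 284, 148 and 75.5 CPM without IL4 and 86.3, 272, 268 and 163 CPM after IL4. Line 4 held the lowest value of each group except CREBBP IL4, where line 1 was lowest. MT-ATP6 had 2153, 3265, 2011 and 864 CPM in AAVS baseline and 2156, 2019.8, 2833 and 1760.2 CPM in AAVS IL4. It had 1818, 2930.5, 2366 and 947 CPM in CREBBP baseline and 1285, 3223, 2764 and 1904 CPM in CREBBP IL4, so that lines 2 and 3 were the upper pair in each CREBBP group. Per kb, MT-ATP8 reached 26.6% ± 5.17 (SD, n = 16) of MT-ATP6, with a range of 20.1% to 37.4%, and the 4 lines overlapped.

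The second transcript with 2 reading frames, MT-ND4L with MT-ND4, separated line 4 from the others. MT-ND4L had 61.3, 149.6, 32.2 and 155 CPM in AAVS baseline and 56.4, 60.8, 61.3 and 189 CPM in AAVS IL4. It had 19.5, 97.6, 20.5 and 120.4 CPM in CREBBP baseline and 29.2, 45.8, 88.4 and 190.2 CPM in CREBBP IL4. Line 4 was the highest in each group. MT-ND4 had 3161, 3903.5, 1574 and 2545 CPM in AAVS baseline and 2850.2, 3260.1, 2396 and 3375 CPM in AAVS IL4. MT-ND4 had 1582, 4280.3, 2089.8 and 2120.0 CPM in CREBBP baseline and 1561, 3411, 3619 and 3277 CPM in CREBBP IL4. For MT-ND4, line 4 was within the range of the others in each group except AAVS IL4, where it was slightly above line 2. Per kb, MT-ND4L was 28.3%, 26.0%, 26.4% and 26.9% of MT-ND4 in the 4 libraries of line 4 (AAVS at baseline and with IL4, then CREBBP at baseline and with IL4), and 4.54% to 17.8% in the 12 libraries of the other lines. Line 4 therefore did not overlap the other lines in this ratio, which does not depend on how libraries are scaled.

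**Figure D2:**
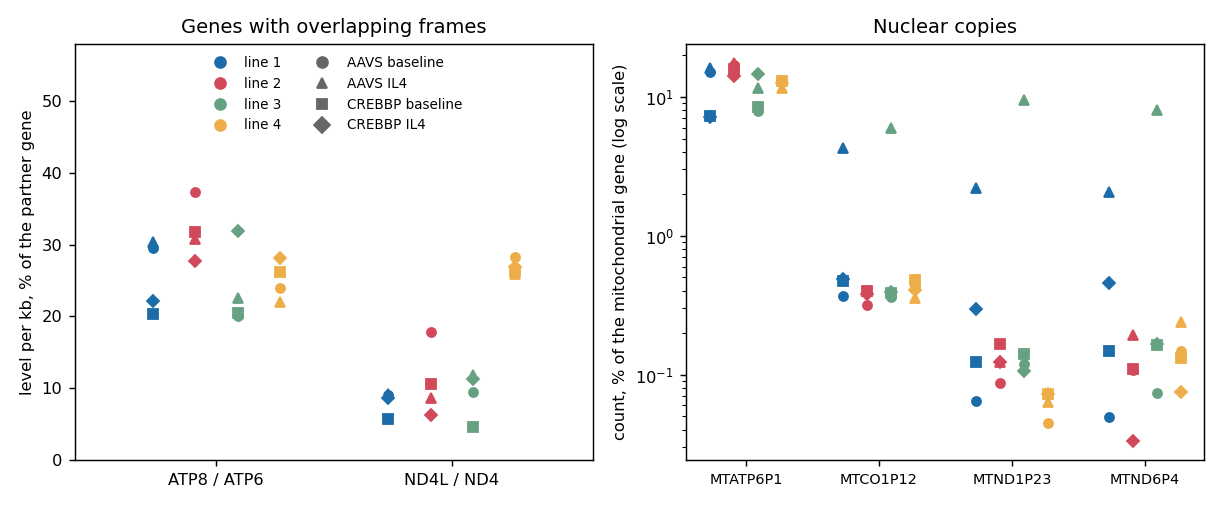
Left, the level per kb of MT-ATP8 and MT-ND4L as a percentage of the gene whose frame overlaps, MT-ATP6 and MT-ND4; right, counts of 4 nuclear copies as a percentage of the count of their mitochondrial gene (log axis), 1 point per library. MT-ND4L lies at 26.0% to 28.3% of MT-ND4 in line 4 and below 18% elsewhere, and 3 of the 4 copies are highest in the AAVS IL4 libraries of lines 1 and 3.

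MT-ND6, a complex I subunit, is the only mRNA made from the other strand. In the AAVS pools of lines 1 to 4, MT-ND6 had 143, 318, 168 and 115 CPM without IL4 and 195, 152, 404 and 296 CPM after IL4. In the CREBBP pools, MT-ND6 had 154, 218, 158 and 152 CPM without IL4 and 111, 149.6, 197 and 214 CPM after IL4. The highest value belonged to line 3 of AAVS IL4, where MT-ND6 reached 2.05% of the counts of the other 12 mRNAs, against 0.450% to 1.04% in the other 15 libraries, and the groups overlapped. The study's methods name a stranded library kit for primary B cells and refer to the same methods for the lines, but whether the counting used the strand is not given in the sources used here. Without it, reads from the opposite strand of MT-ND6 cannot be told apart from it.

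The libraries were made from RNA depleted of ribosomal RNA, and the mitochondrial rRNAs had few counts. In the AAVS pools of lines 1 to 4, MT-RNR1 (ENSG00000211459, chrM:648-1601), the small rRNA, had 0.446, 0.981, 103 and 39.4 CPM without IL4 and 1.40, 23.3, 2.34 and 37.8 CPM after IL4. In the CREBBP pools, MT-RNR1 had 1.46, 109, 1.58 and 53.8 CPM without IL4 and 2.07, 0.646, 5.17 and 58.3 CPM after IL4. All 4 libraries of line 4, line 3 of AAVS baseline, line 2 of AAVS IL4 and line 2 of CREBBP baseline thus had 23.3 CPM or more, and the other 9 libraries had 5.17 CPM or less. MT-RNR2 (ENSG00000210082, chrM:1671-3229), the large rRNA, had 8.70, 6.72, 124 and 39.3 CPM in AAVS baseline and 6.59, 28.8, 13.9 and 46.1 CPM in AAVS IL4. It had 27.1, 139, 23.6 and 57.6 CPM in CREBBP baseline and 36.6, 7.33, 15.2 and 63.2 CPM in CREBBP IL4. MT-RNR2 was graded rather than split, and the balance of both rRNAs moved with the split of MT-RNR1. There were 78.5 to 100.4 counts of MT-RNR1 per 100 counts of MT-RNR2 in the 7 libraries with more MT-RNR1, and 5.12 to 34.1 in the other 9. Neither set followed IL4 or CREBBP targeting, since each of the 4 groups held libraries of both. Nuclear rRNA genes, 530 in the files, summed to at most 0.821 CPM. How far each library was depleted of mitochondrial rRNA was not measured.

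**Figure D3:**
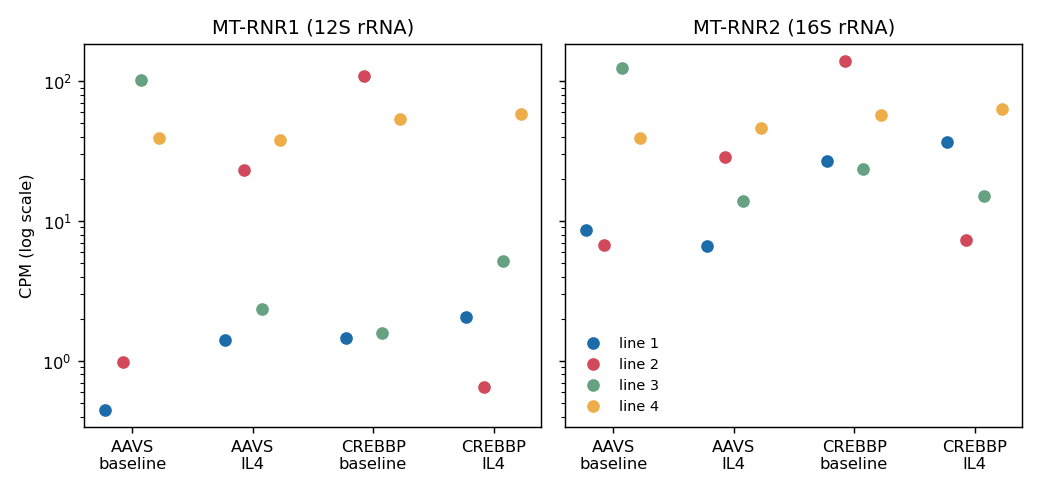
CPM (log axis) of MT-RNR1 and MT-RNR2 in the 4 groups, 1 point per library with the line as colour. MT-RNR1 falls into 7 libraries at 23.3 CPM or more, all of line 4 among them, and 9 at 5.17 CPM or less, in every group.

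The tRNAs were not detected, apart from 1 count of MT-TS1, a serine tRNA, in line 4 of AAVS IL4. The other 21 tRNAs had no count in any of the 16 libraries. Their annotated lengths are 59 to 75 bases, and none of the other 1059 annotated genes of these lengths had a count either, while 83 of 5324 genes of 76 to 150 bases (1.56%) did. The tRNAs were therefore below what these counts can show, and nothing is said here of their abundance.

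Nuclear DNA carries copies of mitochondrial genes that can take up some of their reads. The files list 402 such copies, of which 171 had a count. Their summed counts came to 0.943% to 4.90% of the mitochondrial counts, and 81.5% of these belonged to MTATP6P1 (chr1:633696-634376), a copy of MT-ATP6, and MTCO1P12 (chr1:631074-632616), a copy of MT-CO1. In alignments of GRCh38, MTATP6P1 differed from MT-ATP6 at 10 of 681 positions and MTCO1P12 from MT-CO1 at 21 of 1543, with identical stretches of up to 141 and 243 bases. The 60 bases with the most differences in each pair are printed to show how little tells them apart, with the differing bases in capitals, for MT-ATP6 chrM:8642-8701, MTATP6P1 chr1:633811-633870, MT-CO1 chrM:6207-6266 and MTCO1P12 chr1:631377-631436.
MT-ATP6: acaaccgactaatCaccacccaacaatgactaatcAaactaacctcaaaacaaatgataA
MTATP6P1: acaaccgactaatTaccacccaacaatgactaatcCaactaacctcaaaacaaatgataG
MT-CO1: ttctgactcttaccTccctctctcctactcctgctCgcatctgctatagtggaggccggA
MTCO1P12: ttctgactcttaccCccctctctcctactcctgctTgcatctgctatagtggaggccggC
RSEM divides reads that fit several genes by an estimate, so that the levels of a mitochondrial gene and its copy are uncertain to that extent.

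Counts of MTATP6P1 were 15.0%, 16.9%, 7.85% and 13.1% of those of MT-ATP6 in lines 1 to 4 of AAVS baseline, 16.2%, 17.6%, 11.5% and 11.6% in AAVS IL4, 7.32%, 15.8%, 8.43% and 12.9% in CREBBP baseline and 7.19%, 14.0%, 14.7% and 12.6% in CREBBP IL4. Both CREBBP libraries of line 1 were below both of its AAVS libraries. Counts of MTCO1P12 were 4.26% and 5.97% of those of MT-CO1 in lines 1 and 3 of AAVS IL4 and 0.315% to 0.484% in the other 14 libraries. Among the 12 most abundant copies, 7 had their highest values in the same 2 libraries and 5 did not, as counted after the values were seen. Of the former, MTND1P23 reached 2.19% and 9.55% of MT-ND1 there and at most 0.299% elsewhere, and MTND6P4 reached 2.06% and 7.98% of MT-ND6 there and at most 0.458% elsewhere. Of the latter, MTND2P28 was at 0.821% of MT-ND2 in line 1 and at 0.4001% in line 3 of AAVS IL4, its lowest value, and at 3.56% in line 4. In these libraries the markers of resting or other B cells also had their highest sums, 2048 CPM in line 1 and 3984 CPM in line 3, against 917 and 786 CPM in lines 2 and 4 of the same group. The part of the one in the other was not tested. Of the 25 to 41 copies that passed the filter on low counts, none was called in any of the 5 comparisons of groups (edgeR, adjusted p under 0.05). The order below is IL4 in AAVS, IL4 in CREBBP, CREBBP at baseline, CREBBP with IL4 and difference in response. An unadjusted p under 0.05 (edgeR) was found for 11 of 39, 1 of 25, 2 of 31, 4 of 32 and 3 of 41 copies. Over all genes it was found for 3257 of 20310, 502 of 18282, 2422 of 18936, 5018 of 19581 and 2927 of 21932. DESeq2 called 7 of 39 copies higher for IL4 in the AAVS pools, beside 8.89% of all genes called higher, and 4 of 32 lower for CREBBP against AAVS with IL4, beside 13.4% of all genes called lower, with MTND6P4 in both, and it called 0, 1 and 1 in the other comparisons. A single edgeR fit of all 16 libraries called 5 of 41 copies higher and 8 of 41 lower in these 2 comparisons. Over all 21932 genes it called 1208 higher and 2581 lower, respectively. Without the filter, edgeR called 3 of 166 copies higher, beside 1751 of 38148 genes, and 7 of 150 lower, beside 2400 of 37104 genes. Without line 2, edgeR called MTND1P23 in the former comparison (1 of 37 copies, beside 1029 of 20992 genes higher). In the latter it called MTND6P4 (1 of 36, beside 1661 of 20535 genes lower).

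**Figure D4:**
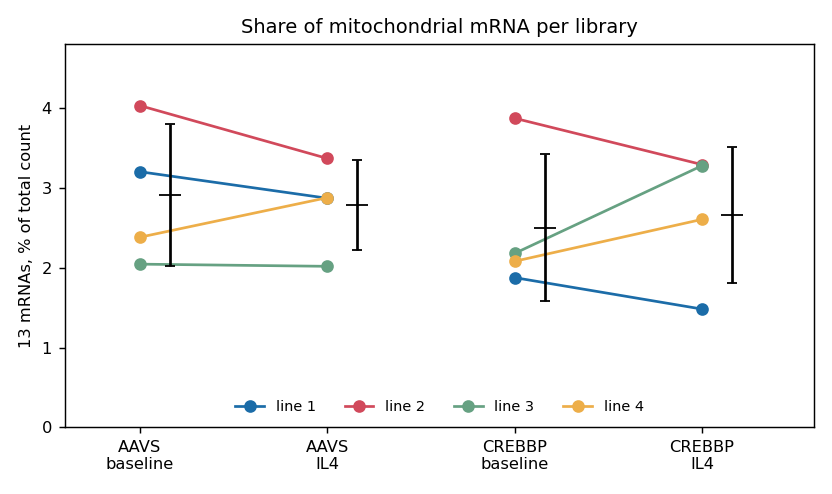
Counts of the 13 mitochondrial mRNAs as a percentage of the total count of each library, with 1 coloured line per cell line joining baseline and IL4 of a pool, and the group mean with its SD in black. The groups overlap, lines 1 and 2 are lower with IL4 in both kinds of pool and line 4 is higher.

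The mitochondrial mRNA share was higher with IL4 in some lines and lower in others. In the AAVS pools of lines 1 to 4, the 13 mRNAs made up 3.20%, 4.03%, 2.04% and 2.38% of the counts at baseline and 2.87%, 3.37%, 2.02% and 2.88% with IL4. The means were 2.91% ± 0.889 and 2.78% ± 0.561 (SD, n = 4), and the mean log2 difference within lines of -0.04 ± 0.23 had an exact sign-flip p of 0.75 (two-sided). In the CREBBP pools, the share was 1.88%, 3.87%, 2.18% and 2.08% at baseline and 1.48%, 3.29%, 3.28% and 2.60% with IL4. The means were 2.501% ± 0.922 and 2.66% ± 0.850 (SD, n = 4), with a mean log2 difference of 0.08 ± 0.45 and an exact sign-flip p of 0.75. Lines 1 and 2 were lower with IL4 in both kinds of pool and line 4 was higher in both. With 4 lines this test cannot give a p below 0.125, so that the values per line carry the comparison.

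For CREBBP targeting the lines differed in direction too. At baseline, the CREBBP pools were below the AAVS pools in 3 of 4 lines, with log2 differences of -0.77, -0.06, 0.09 and -0.20 in lines 1 to 4 and a mean of -0.23 ± 0.38 (exact sign-flip p = 0.375, n = 4). With IL4 the log2 differences were -0.95, -0.03, 0.70 and -0.14, with a mean of -0.11 ± 0.68 (exact sign-flip p = 0.625, n = 4). Line 1 had the largest drop in both comparisons, to 1.88% and 1.48% of the counts. The IL4 response of the CREBBP pools exceeded that of the AAVS pools by a log2 value of 0.13 ± 0.34 (exact sign-flip p = 0.625, n = 4). The share of mitochondrial rRNA, the ratio of rRNA to mRNA and the ratio of MT-ND6 to the other mRNAs were tested in the same way, which makes 20 comparisons in all. The lowest p was 0.25, for the ratio of MT-ND6 in the difference of the IL4 responses (a log2 value of -0.69 ± 0.87, lower in 3 of 4 lines, exact sign-flip test), and the Benjamini-Hochberg adjusted p-values over the 20 comparisons were between 0.882 and 1. Within-line log2 differences of the rRNA share spread with an SD of 2.07 to 4.795.

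**Figure D5:**
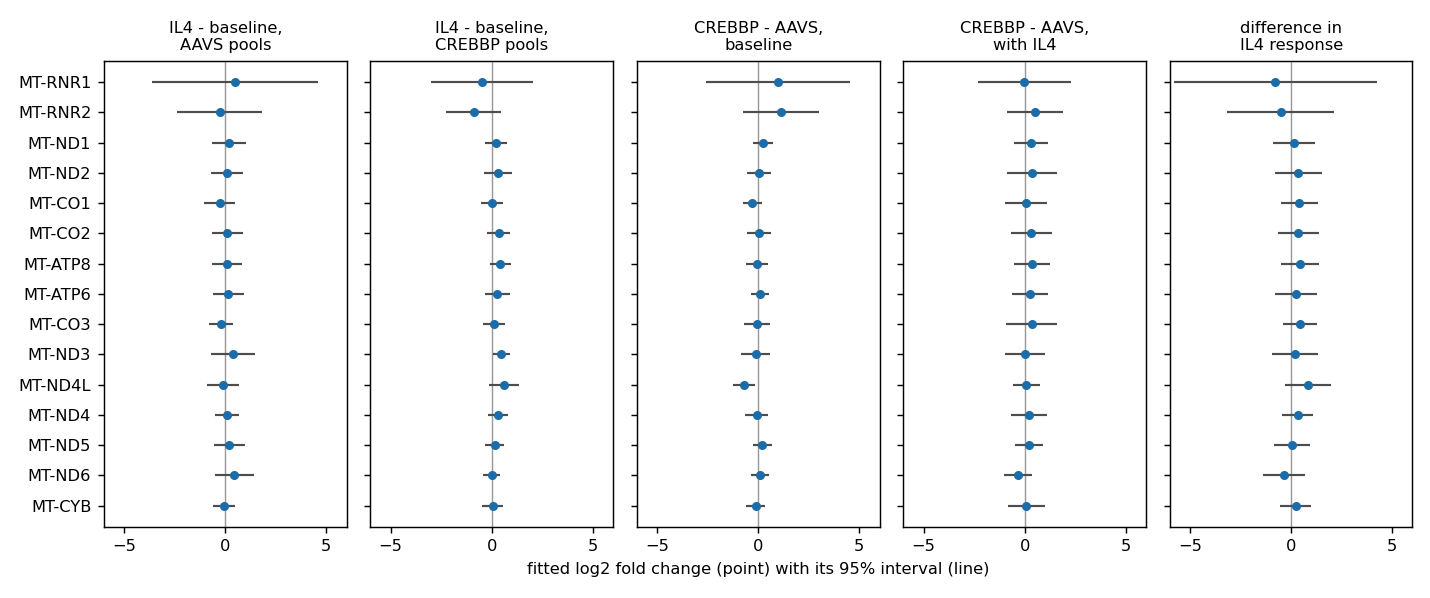
Fitted log2 fold change (point) and 95% interval (line) of the 15 tested mitochondrially encoded genes in 5 comparisons, from the edgeR fits. The intervals of all genes include 0, apart from MT-ND3 for IL4 in the CREBBP pools and MT-ND4L for CREBBP against AAVS at baseline, and those of MT-RNR1 and MT-RNR2 are widest.

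Gene by gene, 15 of the 37 genes passed the filter on low counts, the 13 mRNAs and both rRNAs, and none of them was called at an adjusted p under 0.05 in the 5 comparisons of groups (edgeR quasi-likelihood F test, blocked by line, with adjustment over every gene tested). DESeq2 called none of the 15 in these comparisons either, against 10.2% of all genes for IL4 in the AAVS pools, 0.00547% for IL4 in the CREBBP pools, 2.7% for CREBBP against AAVS at baseline, 21.2% with IL4 and 5.01% for the difference in response. For IL4 in the AAVS pools, 0 of 15 were called against 2.4% of all 20310 genes tested. Of the 15, 10 had positive and 5 negative log2 changes, with a median of 0.10 beside 0.01 over all genes (-0.19 for the 15 without line 4), and 0 had an unadjusted p under 0.05. The largest was MT-RNR1, with a log2 change of 0.48 (SE 1.71, 95% interval -3.60 to 4.57, edgeR adjusted p = 0.900, higher in 2 of 4 lines). By CPM, MT-CO1 was lower with IL4 in 4 of 4 lines, by log2 values between -0.59 and -0.01. The value of -0.01 was that of line 2, where nuclear protein-coding genes took 85.1% of the counts with IL4 and 87.0% at baseline. The direction in line 2 therefore depends on the scaling. The fitted log2 change of MT-CO1 was -0.28 (SE 0.32, edgeR adjusted p = 0.667). Among the mRNAs, changes ran from -0.28 to 0.46 and the intervals of 9 of the 15 genes lay within a 2-fold change in either direction.

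For IL4 in the CREBBP pools, 0 of 15 were called, and likewise 0% of all 18282 genes, of which 502 had an unadjusted p under 0.05 and 1 was called by DESeq2. The median log2 change of the 15 was 0.21 beside -0.04 over all genes. MT-ND3 was the only one with an unadjusted p under 0.05, at 0.48 (SE 0.19, edgeR adjusted p = 0.924), but it was higher in only 2 of 4 lines. The largest was MT-RNR2, at -0.89 (SE 0.60, 95% interval -2.24 to 0.47, edgeR adjusted p = 0.924, lower in 2 of 4 lines), and was at -0.11 without line 2. For CREBBP against AAVS at baseline, 0 of 15 and 0% of all 18936 genes were called, with 2422 genes at an unadjusted p under 0.05 and 511 called by DESeq2, none of them mitochondrially encoded. MT-ND4L had the lowest p of the 15, with a log2 change of -0.71 (SE 0.24, 95% interval -1.25 to -0.18, edgeR adjusted p = 0.303), and was lower in 4 of 4 lines, as was MT-CO1 at -0.29 (SE 0.21, edgeR adjusted p = 0.595). The largest change was that of MT-RNR2, 1.13 (SE 0.85, edgeR adjusted p = 0.607, higher in 3 of 4 lines), and it ran from 0.13 without line 2 to 2.15 without line 3.

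For CREBBP against AAVS with IL4, 0 of 15 were called against 4.39% of all 19581 genes (189 higher and 670 lower). The median log2 change was 0.22 for the 15 and -0.05 over all genes, and that of the 15 was -0.06 without line 3 and 0.45 without line 1. MT-RNR2 was the largest, with 0.52 (SE 0.60, edgeR adjusted p = 0.605, higher in 3 of 4 lines). Upper-quartile in place of TMM scaling moved the median of all genes to -0.27 and that of the 15 to 0.0055, and the calls over all genes to 103 higher and 823 lower. By CPM, MT-ND6 was lower in 4 of 4 lines, by log2 values between -1.04 and -0.025. The value of -0.025 was that of line 2. There the small RNAs RN7SK, RN7SL1 and RN7SL2 took 18.1% of the counts in CREBBP IL4 and 6.97% in AAVS IL4. Nuclear protein-coding genes took 73.7% and 85.1%, so that the direction in line 2 depends on the scaling. The fitted log2 change of MT-ND6 was -0.32 (SE 0.30, edgeR adjusted p = 0.528). For the difference in IL4 response, 0 of 15 were called against 0.638% of all 21932 genes. MT-ND4L had the largest value, 0.82 (SE 0.52, 95% interval -0.32 to 1.96, edgeR adjusted p = 0.526), with a higher response of the CREBBP pool in 4 of 4 lines. By CPM, the response of MT-ND5 was lower in the CREBBP pool in 4 of 4 lines, by log2 values between -0.49 and -0.0026, while its fitted difference was 0.05 (SE 0.40, edgeR adjusted p = 0.973). The value of -0.0026 was again that of line 2, with the unequal shares given above, so that this direction too depends on the scaling. The intervals of 11, 12 and 4 of the 15 lay within a 2-fold change for IL4 in the CREBBP pools, CREBBP targeting at baseline and CREBBP targeting with IL4, and of 2 of the 15 for the difference in response, so that larger changes of the other genes lay within their intervals.

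Differences between the lines were called, by p-values that measure only the spread left within a line. The 4 libraries of a line are 2 pools with and without IL4, not 4 cultures of the same kind. In a fit of all 16 libraries with the group as a covariate, 5 of the 15 genes differed between the 4 lines (edgeR, F test of the line term, adjusted p under 0.05), against 40% of all 21932 genes, so that differences between lines were not more frequent among the mitochondrially encoded genes than among all genes. MT-ND4L had 41.6 ± 20.4, 88.5 ± 46.2, 50.6 ± 30.5 and 164 ± 33.0 CPM (mean ± SD of 4 libraries) in lines 1 to 4 (edgeR adjusted p = 0.00529), 3.93-fold higher in line 4 than in line 1. MT-CO2, which carries the copper site that takes electrons from cytochrome c, had 1172 ± 474, 2412 ± 375, 1276 ± 416 and 771 ± 308 CPM (edgeR adjusted p = 0.0116). Its 4 libraries of line 2 were above all 12 others. MT-ATP8 had 148 ± 57.2, 279 ± 74.6, 183 ± 63.8 and 105 ± 45.5 CPM (edgeR adjusted p = 0.0131), and MT-ATP6 had 1853 ± 410.5, 2859 ± 579, 2494 ± 382 and 1369 ± 539 CPM (edgeR adjusted p = 0.0249). MT-ND5, a proton-pumping subunit of complex I, had 2139 ± 177, 2824 ± 718, 2074 ± 517 and 1338 ± 437 CPM (edgeR adjusted p = 0.0165). In these 4 genes line 2 was highest and line 4 lowest, 2.09-fold to 3.13-fold apart, whereas MT-ND4L was highest in line 4. Without line 4, 0 of 15 genes were called, beside 4009 of 21357 over all genes, with edgeR adjusted p-values of the 5 between 0.127 and 0.515. Without line 1, 2 or 3, 7, 4 and 7 of 15 were called, respectively. Over all genes these fits called 7065 of 22085, 4101 of 22162 and 9953 of 22083. MT-CO2 and MT-ATP8 were also lost without line 2, with adjusted p-values of 0.1497 and 0.0866 (edgeR). Without the 4 AAVS IL4 libraries, 6 of 15 were called, beside 8631 of 20002 over all genes. MT-CO1, the most abundant, was not called (edgeR adjusted p = 0.354), with means of 10069, 14612, 9037 and 12452 CPM.

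The nuclear genes that serve the mitochondrial genome were set beside it, as 8 lists with 247 genes, of which 246 passed the filter. They comprise factors of mitochondrial transcription and replication, RNA processing and stability and translation, mitochondrial ribosomal proteins and nuclear subunits of complexes I, III, IV and V. By edgeR none was called for IL4 in the AAVS pools, IL4 in the CREBBP pools, CREBBP against AAVS at baseline or the difference in response. In these comparisons 11, 5, 76 and 36 of 246 had an unadjusted p under 0.05 (edgeR). Over all genes, 3257 of 20310, 502 of 18282, 2422 of 18936 and 2927 of 21932 did. DESeq2 called 3, 0, 9 and 2 of 246, beside 2062, 1, 511 and 1099 over all genes. At baseline edgeR called 21 of 246 higher without line 2, beside 306 of 19206 genes. With no filter on low counts it called 3 of 247 higher, beside 249 of 35938 genes. For CREBBP against AAVS with IL4, 153 of 246 had an unadjusted p under 0.05 (edgeR), beside 5018 of 19581 over all genes. In this comparison 12 of 246 (4.88%) were called, all of them higher, where 0.965% of all genes were called higher and 4.39% in either direction. They were 1 of 26 transcription and replication factors, 2 of 36 processing factors, 0 of 30 translation factors, 3 of 78 ribosomal proteins, 4 of 37, 0 of 9, 0 of 12 and 2 of 18 subunits of complexes I, III, IV and V. The count was 0 without line 1, 3 or 4, 47 without line 2, and between 2 and 133 under the other settings. Over all genes, calls higher numbered 0, 0 and 6 without line 1, 3 or 4, 886 without line 2 and 17 to 1812 otherwise.

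The median log2 change of the lists in that comparison was 0.54 for transcription and replication, 0.64 for processing, 0.56 for translation, 0.87 for ribosomal proteins and 0.88, 0.98, 0.94 and 1.09 for complexes I, III, IV and V. The mitochondrially encoded genes, which supply the other subunits of the same complexes, had 0.22 (-0.06 to 0.45 without 1 line, 0.0055 with upper-quartile scaling) and all genes -0.05. TFAM, which packages mitochondrial DNA and starts its transcription, had 51.8 to 91.7 CPM in AAVS IL4 and 99.99 to 136 CPM in CREBBP IL4 without overlap, and was 2.21-fold higher (log2 1.14, SE 0.22, edgeR adjusted p = 0.0380, higher in 4 of 4 lines). C1QBP, a matrix protein of mitochondrial ribosome function, was 2.39-fold higher (log2 1.26, SE 0.27, edgeR adjusted p = 0.0480, higher in 3 of 4 lines), and HSD17B10, a subunit of the mitochondrial RNase P that frees the tRNAs, 1.93-fold (log2 0.95, SE 0.21, edgeR adjusted p = 0.0488). The ribosomal proteins MRPL51, MRPL35 and MRPL3 were 2.34-fold to 2.40-fold higher, the 3 complex I subunits with the largest change, NDUFB6, NDUFAB1 and NDUFB2, 3.14-fold, 2.69-fold and 2.49-fold, and ATP5MC1 and ATP5MC3, which encode the ring of complex V, 2.91-fold and 2.53-fold. At baseline, CREBBP against AAVS gave list medians in the same direction. Those for transcription and replication, processing, translation and ribosomal proteins were 0.21, 0.21, 0.19 and 0.42. Complexes I, III, IV and V had 0.55, 0.54, 0.57 and 0.53, the mitochondrially encoded genes 0.03 and all genes -0.03.

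POLRMT had 22.3 to 125 CPM over the 16 libraries and was not called, with log2 changes of 0.55 at baseline (SE 0.21, edgeR adjusted p = 0.339) and 0.68 with IL4 (SE 0.43, edgeR adjusted p = 0.353) for CREBBP against AAVS. LRPPRC, which keeps mitochondrial mRNAs stable, had 201 to 469 CPM, and was at 0.78 with IL4 (SE 0.23, edgeR adjusted p = 0.0970, higher in 4 of 4 lines) and at 0.09 at baseline (SE 0.20, edgeR adjusted p = 0.879). Of these comparisons, that with IL4 contains the AAVS IL4 libraries with their marker genes of other B cells, and the part of those in the lists was not tested.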

How the data were processed

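The deposited files hold estimated counts per gene, which the authors made from reads trimmed with cutadapt 2.3, aligned to GRCh38 with STAR 2.7.8a and counted with RSEM 1.3.3, and which are whole numbers as deposited. A stranded kit is named for the primary cells, whose methods the lines followed, while the strand setting of the counting and the RNAs targeted by the depletion are not given in the sources used here. RSEM shares reads that fit several genes, which affects overlapping genes and nuclear copies. The 37 genes and all lists were chosen with earlier results of these data known, and 1 marker gene is not reported here. Genes passing filterByExpr were tested with edgeR 4.0.16 (TMM, quasi-likelihood test, R 4.3.3) with the line as a block, within the 2 groups compared, or over 16 libraries for the difference in IL4 response and for the lines (with the group as covariate), and p-values were adjusted over all genes tested with a threshold of 0.05. The line is the same cell line in each group and so pairs the libraries, and correlations of same-line deviations had medians of 0.23 to 0.68, with a lowest of -0.08 in line 3. Shares and ratios were compared within lines on the log2 scale by an exact two-sided sign-flip test over 16 sign patterns. CPM are counts scaled to a library total of 1000000, and lengths, positions and sequences come from GENCODE 44 and GRCh38. The number of lines in which a gene was higher or lower was taken from CPM. DESeq2 1.42.0 and other scalings, filters and sample sets were alternatives. The scripts were tested on simulated data. Libraries of different lines in the same group differed by far more than sampling noise.

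Values in every library are given for both rRNAs, the 2 mRNAs with the highest and the 2 with the lowest mean level per kb, MT-ND6 and the 2 overlapping pairs. Fold changes are given for genes past the threshold and for the largest change in each comparison. MT-CO1, MT-ND3, MT-ND4L, MT-ND5 and MT-ND6 are also named where their direction was shared by 4 lines or their unadjusted p was under 0.05, and MTND1P23, MTND6P4 and MTND2P28 beside the 2 most abundant copies, which was chosen after their values were seen. From each nuclear list up to 3 called genes with the largest change are named, with POLRMT, TFAM and LRPPRC as fixed examples.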

Additional observations from a re-analysis of the deposited data

Results flagged for a closer look

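In 8 of 80 sets of 4 libraries, 1 library lay far from the other 3 by Dixon's criterion for 4 values. For independent sets of like libraries, chance gives about 1 in 20, which would be 4 sets. These sets share their libraries, and each holds 4 different lines, so that the 8 cannot be judged against the 4. Line 1 of CREBBP IL4 was low for MT-CO1 (6218 CPM, others 11068 to 11829), MT-ND4 (1561 CPM, others 3277 to 3619) and MT-CYB (725 CPM, others 1716 to 1908.5). Line 4 was high for MT-RNR1 in CREBBP IL4 (58.3 CPM, others 0.646 to 5.17) and for MT-ND4L in AAVS IL4 (189 CPM, others 56.4 to 61.3), and low for MT-ATP8 in AAVS IL4 (118 CPM, others 189 to 199). Line 2 of CREBBP baseline was high for MT-ND6 (218 CPM, others 152 to 158) and for the share of mitochondrial mRNA (3.87%, others 1.88% to 2.18%).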

How the results depend on the processing

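None of the 15 genes was called in the 5 comparisons of groups under other scalings, a stricter filter, all 16 libraries in 1 fit, DESeq2 or without any 1 line. With no filter on low counts, MT-RNR2 was called (1 gene each) for IL4 in the CREBBP pools (log2 -0.88, edgeR adjusted p = 0.0413) and for CREBBP targeting at baseline (1.08, edgeR adjusted p = 0.0117). Over all genes, 40 of 34259 and 586 of 35938 were called in these 2 comparisons with no filter. Without the line as a replicate block, again 0 of 15 were called, all genes called numbered 467, 0, 0, 540 and 2 in place of 488, 0, 0, 859 and 140, and MT-RNR1 for IL4 in the AAVS pools turned from 0.48 to -1.27 (-1.53 with all 16 libraries, -1.03 to 1.86 without 1 line). Without 1 line, MT-RNR2 ran from -1.41 to -0.11 for IL4 in the CREBBP pools, from 0.13 to 2.15 for CREBBP targeting at baseline (0.39 without the block) and from -0.12 to 1.19 with IL4. Calls between lines ran from 0 to 7 of 15 without 1 line, beside 4009 to 9953 over all genes.

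Of 113 alternatives for shares and ratios, 97 kept the direction and 16 turned it. Their lowest p of 0.25 (exact tests) is the smallest that the sign-flip test can give without 1 line. Among the alternatives that kept all lines the lowest p was 0.371 (exact tests). The mRNA share for IL4 in the AAVS pools turned from -0.041 to 0.022 relative to nuclear protein-coding counts. Adding the nuclear copies to the mRNAs was an alternative chosen after seeing the data, and its 5 values kept their direction. Leaving out 1 line gave log2 ranges, in the order IL4 in AAVS, IL4 in CREBBP, CREBBP at baseline, CREBBP with IL4 and difference in response, of -0.15 to 0.032, -0.083 to 0.23, -0.34 to -0.05, -0.38 to 0.17 and -0.035 to 0.23 for the mRNA share, -1.30 to 0.89, -1.71 to 0.085, -0.34 to 2.38, -0.62 to 1.04 and -2.35 to 1.39 for the rRNA share, -1.33 to 0.93, -1.94 to -0.11, -0.050 to 2.72, -0.79 to 1.18 and -2.31 to 1.23 for rRNA to mRNA, and 0.30 to 1.001, -0.24 to -0.08, -0.024 to 0.43, -0.69 to -0.06 and -1.08 to -0.39 for MT-ND6. The cause was not tested. Genes called over all alternatives numbered 25 to 2062, 0 to 40, 0 to 586, 25 to 4393 and 2 to 1191 in the 5 comparisons, and 4009 to 9953 between lines.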
